A study of Drosophila melanogaster with 2 samples.

Results

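Summits upstream of single promoters are the ChIP-seq peak positions that lay ahead of a protein-coding gene without a divergent neighbour sharing the interval. A summit, the position of highest signal in a region, was taken where it lay 1 to 1000 bp upstream of the nearest protein-coding transcription start site (TSS). A summit was left out where a minus-strand TSS on its left and a plus-strand TSS on its right both lay within 1000 bp. The rule kept 489 of the 1708 nuclear regions (28.6%, 95% exact interval 26.5 to 30.8), out of 1731 regions in the list. The other nuclear summits comprised 536 between divergent promoters, 159 at the TSS or up to 1000 bp downstream of it, and 524 farther away. The list itself holds the 1731 regions of highest signal value in a pooled list of both replicates. Within it, signal values played no further part in the rule, and nothing in the rule looked at the DNA sequence.

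The samples were 2 biological replicates, numbered 3 and 4, of whole larvae at the wandering stage of the third instar, males and females pooled, of unstated age. Both came from 1 transgenic strain, dsf-GFP, whose fusion protein, dsf-eGFP, joins the product of the gene dsf at its C-terminal end to green fluorescent protein. Antibodies against the fluorescent tag were used to pull down sonicated chromatin. All tissues of the larva were mixed, no second genotype was profiled, and the control experiment that the labels name as possible was not analysed here, so no group stands against these samples. The regions therefore mark where the immunoprecipitated signal was high, and a gene is named only as the owner of the nearest TSS. Read counts were not among the deposited values, which leaves the depth unknown, and every interval given covers counting error only.

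The gene dsf (dissatisfaction) encodes a nuclear receptor without a known ligand, a relative of tailless, and is known in flies for its role in the nervous system and in courtship and mating behaviour of both sexes. Receptors of that group bind single short sites built on the word AAGTCA. In the compact fly genome many genes sit head to head and share the interval between their start sites, so that an upstream summit cannot be given to 1 gene. At a single promoter it can, and the DNA around the summit can be read on the strand of that gene. Many promoters of growth and housekeeping genes carry the DNA replication-related element, whose core is TATCGA and which is bound by the factor DREF. The boundary protein BEAF-32 binds clustered copies of overlapping words, such as CGATA.

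The windows that carry the main sequence result are those with TATCGA, printed on the strand of the gene in lower case, with TATCGA or its reverse complement TCGATA in capitals. Each window spans 50 bp on either side of the summit, on dm6, and was read from the RefSeq genome of the same release. Windows were chosen by signal value among the 323 that met no annotated exon and lay outside 1 chromosome arm, whose sequences are not printed. The first 5 are among the strongest of these windows with the word and the last 3 are the weakest of them.
CG11857 (chr3R:25258764-25258864, plus strand): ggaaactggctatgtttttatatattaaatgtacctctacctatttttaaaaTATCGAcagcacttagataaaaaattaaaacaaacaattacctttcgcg
RhoGAP93B (chr3R:21097831-21097931, minus strand): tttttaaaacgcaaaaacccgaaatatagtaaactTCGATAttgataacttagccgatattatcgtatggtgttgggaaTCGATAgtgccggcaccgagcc
Helz (chr3L:14790356-14790456, plus strand): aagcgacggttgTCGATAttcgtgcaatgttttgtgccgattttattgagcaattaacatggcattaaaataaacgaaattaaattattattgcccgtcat
numb (chr2L:9449534-9449634, plus strand): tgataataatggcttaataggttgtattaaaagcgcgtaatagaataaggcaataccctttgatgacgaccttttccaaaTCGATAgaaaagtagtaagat
jagn (chr3R:5779213-5779313, plus strand): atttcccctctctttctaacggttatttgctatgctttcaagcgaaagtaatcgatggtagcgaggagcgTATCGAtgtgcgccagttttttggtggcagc
Rab35 (chrX:20159958-20160058, minus strand): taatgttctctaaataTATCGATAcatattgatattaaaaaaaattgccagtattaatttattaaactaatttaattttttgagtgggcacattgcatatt
crol (chr2L:11809501-11809601, minus strand): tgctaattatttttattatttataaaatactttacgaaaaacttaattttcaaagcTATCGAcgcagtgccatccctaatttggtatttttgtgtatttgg
Cmpk (chr3R:26055479-26055579, minus strand): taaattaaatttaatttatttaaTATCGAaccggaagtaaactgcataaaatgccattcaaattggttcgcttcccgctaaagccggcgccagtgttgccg

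The strongest of the 323 windows without TATCGA, chosen by signal value, are given beside them. Capitals mark 4 words of A and T alone that were more frequent at summits than beside them, on either strand: TTTAAA (in 115 windows), TAAATA (in 155), AAAATA (in 187) and TATAAA (in 110). The window of CG14100 held none of the 4.
CG14100 (chr3L:19590582-19590682, minus strand): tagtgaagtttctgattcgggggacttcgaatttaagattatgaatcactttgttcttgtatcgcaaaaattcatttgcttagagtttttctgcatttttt
Lk6 (chr3R:11761017-11761117, minus strand): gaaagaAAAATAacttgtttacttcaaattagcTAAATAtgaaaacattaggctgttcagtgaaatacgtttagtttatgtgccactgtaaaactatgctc
CG18549 (chr3R:12449110-12449210, plus strand): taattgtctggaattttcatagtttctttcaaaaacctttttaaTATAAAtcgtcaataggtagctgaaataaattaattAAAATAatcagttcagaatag
gish (chr3R:16280685-16280785, plus strand): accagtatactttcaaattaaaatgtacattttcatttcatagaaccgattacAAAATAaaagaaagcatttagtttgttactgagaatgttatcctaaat
Gapdh2 (chrX:15867954-15868054, plus strand): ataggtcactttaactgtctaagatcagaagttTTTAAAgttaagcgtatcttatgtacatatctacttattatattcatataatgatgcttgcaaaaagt
ph-p (chrX:2137276-2137376, minus strand): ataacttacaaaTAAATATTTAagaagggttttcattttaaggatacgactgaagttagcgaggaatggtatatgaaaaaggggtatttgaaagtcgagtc

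A further pair shows the strongest of the 323 windows with the receptor word of the tailless group, AAGTCA or its reverse complement TGACTT, in capitals. Sox14 and Tina-1, with signal values of 378.4 and 292.4, also held it and ranked above Ptpmeg2 but are not among the 323.
larp (chr3R:28326547-28326647, minus strand): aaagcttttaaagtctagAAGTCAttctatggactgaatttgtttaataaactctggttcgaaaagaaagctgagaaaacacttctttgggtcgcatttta
Ptpmeg2 (chrX:9646069-9646169, minus strand): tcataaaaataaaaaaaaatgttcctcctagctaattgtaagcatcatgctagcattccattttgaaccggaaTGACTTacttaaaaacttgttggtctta

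Summits of single promoters lay close to the start site. Their median distance upstream was 189 bp, with quartiles of 109 and 326 bp, and 262 of 489 (53.6%) lay within 200 bp. The most filled bin of 50 bp was 101 to 150 bp, with 84 summits. A long tail followed, with 64 summits (13.1%) more than 500 bp away. Summits between divergent promoters, which the rule left out, sat nearer to their closest TSS, at a median of 85 bp with quartiles of 40 and 127 bp. That difference is partly set by the rule, since the closer of a pair of TSS was measured there, and it was not tested. At the inner edge of the rule, Claspin, which encodes a replication checkpoint protein, Dph4 and Atxn7 each had a summit 1 bp upstream, with signal values of 124.2, 96.0 and 89.4. At the outer edge the summit of Lk6, the kinase of the translation factor eIF4E, lay 988 bp upstream. The nearest summit beyond the limit lay 1010 bp upstream of CG43658 (signal value 79.0), and the summits of RhoGEF2, Lmpt and Nedd8 fell on the TSS itself, at 0 bp.

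**Figure D1:**
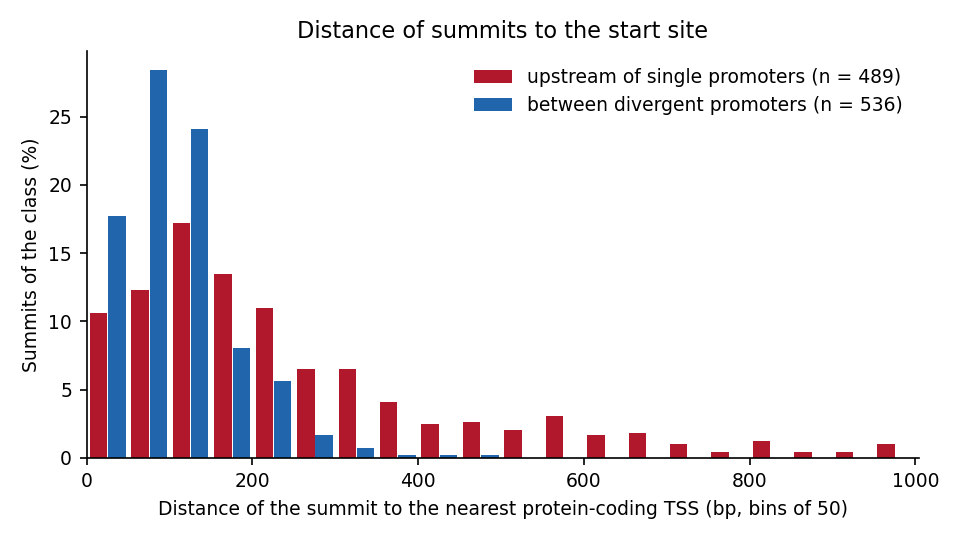
Share of summits (vertical axis, %) in bins of 50 bp by distance to the nearest protein-coding TSS (horizontal axis), for 489 summits upstream of single promoters (red) and 536 between divergent promoters (blue). The single-promoter summits peak at 101 to 150 bp with 17.2% and reach to 988 bp, and the divergent ones peak at 51 to 100 bp with 28.4%.

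Most of these summits lay outside protein-coding genes, here called intergenic. Non-coding genes were not considered. Of the 489, 278 (56.9%) were intergenic and 151 (30.9%) lay in an intron of the gene whose TSS they preceded. Of the rest, 18 lay in exons of that gene, 31 in introns of another gene and 11 in exons of another gene. All 151 in an intron of their own gene belonged to internal promoters of genes with several start sites. Their position inside the gene fixes that. In all, 169 summits (34.6%) were upstream of an internal TSS, 112 (22.9%) of the most upstream TSS of a gene with several, and 208 (42.5%) of the only TSS of a gene. Summits at internal promoters lay farther out, at a median of 257 bp, than those at the most upstream TSS (146 bp) or at an only TSS (160 bp). Going upstream from the summit, the first end of another protein-coding gene was sought, leaving out genes that span the summit. That gene was on the same strand for 320 summits, with its 3' end at a median distance of 758 bp. It was on the opposite strand for 169, at a median of 4013 bp. All 181 such neighbours within 1000 bp were on the same strand, which the rule fixes.

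The deposited signal value, the authors' own score of a region, ran between 73.5 and 778.9 over the 489 regions, with a median of 107.0 and quartiles of 88.1 and 140.4. Summits between divergent promoters had a median of 109.1, downstream summits 93.2 and summits away from promoters 99.0. Among the strongest 25% of all nuclear regions were 120 single-promoter summits (24.5% of them, interval 20.8 to 28.6) and 154 divergent ones (28.7%, 24.9 to 32.8). The intervals overlap, and the 4 classes cover much the same range of signal values, whose lower end is set by the cut that made the list. The 25 strongest single-promoter regions had signal values of 266.7 or more. Of these, 12 were intergenic and 10 lay in an intron of their own gene, and their median distance to the TSS was 136 bp. All 25 were narrower than 404 bp, the width of 433 of the 489 regions. The 56 narrower regions had a median signal value of 254.8, against 100.8 for regions of the usual width.

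The strongest region lay 108 bp upstream of CG14100 and had a joint signal value of 778.9. Its own signal value was 384.1 in replicate 3 and 395.1 in replicate 4, ranks 1 and 3 among the nuclear regions of each. Here and below, a replicate's value is that of its summit nearest to the joint summit, within 100 bp. That summit need not be the strongest one of the replicate there. The next regions mixed metabolic, signalling and chromatin genes. In an internal promoter interval of Lk6 the signal value was 234.8 in replicate 3 and 271.6 in replicate 4. Upstream of an internal TSS of gish, a casein kinase of the gamma type, it was 187.7 and 286.6 in replicates 3 and 4. At Gapdh2, which encodes a glycolytic dehydrogenase, replicate 3 gave 144.1 and replicate 4 gave 304.0, the widest gap among these. The Polycomb group gene ph-p was close to even, with 206.1 in replicate 3 and 217.3 in replicate 4. Sox14, an ecdysone-induced transcription factor gene, had 165.0 in replicate 3 and 220.0 in replicate 4. The small heat shock gene Hsp27 had 126.0 in replicate 3 and 227.2 in replicate 4, and fkh, which encodes a forkhead factor of the salivary gland, had 98.8 and 188.8. Replicate 4 gave the higher value for 24 of the 25 strongest regions. The exception was eIF6, which encodes a ribosomal anti-association factor, with 165.0 in replicate 3 and 148.6 in replicate 4. Higher values in replicate 4 were not particular to these regions. Medians in replicates 3 and 4 were 48.2 and 64.6 at divergent summits and 40.2 and 59.8 downstream. Away from promoters they were 40.7 and 61.0. Also among the 25 were CG1888, CG18549, Fkbp14, larp, CG43389, Trp1, PAN3, CG1635, CG4496, Tina-1, aralar1, Adck1, Hpf1, HmgZ, Jwa and CG11857.

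Most of these regions were seen in both replicates. A summit within 100 bp was listed for 445 of 489 (91.0%) in replicate 3 and for 474 (96.9%) in replicate 4, a mean of 94.0% ± 4.19 (SD, n = 2). Both replicates listed 432 (88.3%), and neither listed 2, at scny and CG10470. The joint list draws on both replicates, and each replicate's list holds 29999 regions with background included, so high shares are built in. When a summit had to be among the 1731 strongest of a replicate, both replicates held 288 (58.9%). The 489 regions were divided by joint signal value into 4 bands, of 123 regions in the strongest and 122 in each of the others. Both replicates held 110 regions of the strongest band among their 1731 strongest, 97 of the next, 61 of the one after it and 20 of the weakest band (16.4%). With a distance of 50 bp in place of 100 bp, 65.4% were found in both. Across the 432 found in both, Spearman's rho between the signal values of the nearest summits in replicates 3 and 4 was 0.504. This is a description across regions, which share libraries and are not independent. The median signal value was 44.1 in replicate 3 and 64.4 in replicate 4, and the median displacement of the replicate's summit was 17 and 8 bp.

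**Figure D2:**
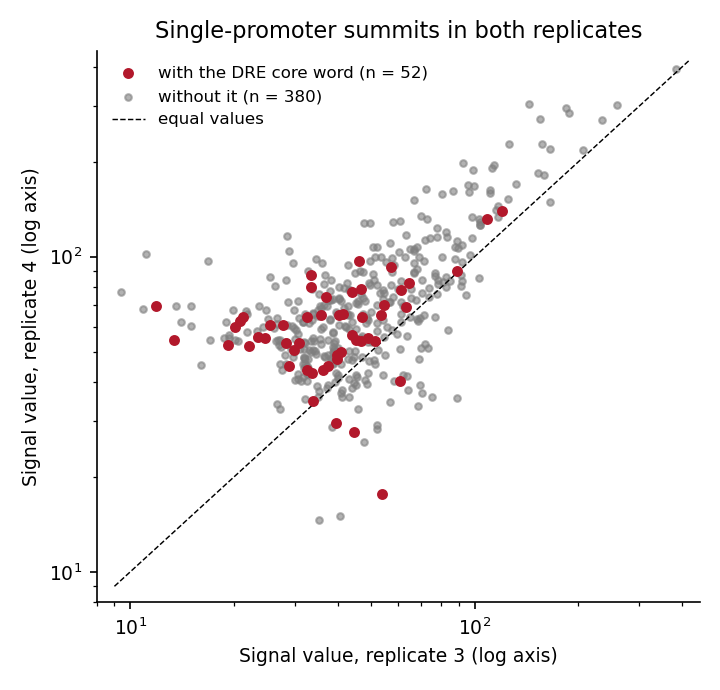
Signal value in replicate 3 (horizontal) and replicate 4 (vertical), both on log axes without a unit, for the 432 single-promoter summits found in both. Each value is that of the replicate's nearest summit within 100 bp. Red points are the 52 with TATCGA in the window, grey points the 380 without, and the dashed line marks equal values; 369 points (85.4%) lie above it.

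TATCGA was the named word most enriched at these summits. It stood, on either strand, within 50 bp of 57 of 489 summits (11.7%, interval 8.95 to 14.8), while 12 summits (2.45%) had it in their flank pair. A flank pair was 2 pieces of 53 bases, centred 300 bp upstream and downstream of the summit, which together offer the same number of word positions as the window. At the 316 summits within 250 bp of the TSS the downstream piece lay past that TSS, and its part in the contrasts was not tested. The word was only in the window at 54 summits and only in the flanks at 9, an odds ratio of 6.00 (interval 2.94 to 13.8). The two-sided exact McNemar test, with Benjamini-Hochberg adjustment over all hexamers collapsed with their reverse complements, gave an adjusted p of 2.54e-06. Over the alternatives the adjusted p ran between 3.28e-07 and 0.834. By the same exact test the odds ratio was 3.06 for regions taken from replicate 3 alone (adjusted p = 0.00179) and 3.00 with flanks 500 bp away (adjusted p = 0.00111). In the strongest 25% of the list it was 3.50, with the word in 7 windows and 2 flank pairs, and the exact McNemar p before adjustment was 0.180. Regions are the units of these tests, so the p-values describe the list and not biological replicates, and 36 of the summits shared a TSS with another.

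Around TATCGA the sequence was often longer than the core. The palindrome TATCGATA, which reads the same on both strands, stood in 16 of the 57 windows, as at Rab35 above. The overlapping word CGATAG stood in 40 windows, 33 of them with TATCGA as well. The site nearest the summit lay a median of 18.5 bp from it, and within 25 bp of it at 37 of the 57. It was on the gene side of the summit at 34 and on the far side at 23. In the window of CG11857, which ranked 25 of 489, the centre of the site lay 4.5 bp from the summit on the gene side. Measured from the start site instead, the nearest site lay a median of 58.5 bp upstream, with quartiles of 29.5 and 165.5 bp.

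TATCGA was most frequent at summits close to the start site. Of the 112 summits within 100 bp of the TSS, 38 held the word (33.9%, interval 25.3 to 43.5). Farther out the share was 5.33% at 101 to 200 bp, 6.52% at 201 to 400 bp and 2.25% at 401 to 1000 bp. Windows placed 51 bp upstream of all single promoters of the genome held the word in 10.3% of cases (9.82 to 10.9), and windows placed 151, 301 and 701 bp upstream in 4.50%, 4.29% and 3.70%. The interval of the summits lay above that of the promoters in the nearest bin and overlapped it in the other 3. The division by distance was chosen after the data were seen, and these shares were not tested. The 57 summits with the word lay at a median of 71 bp and the 432 without it at 200 bp. The word stood in 45 of 278 intergenic windows (16.2%) and in 8 of 151 windows in an intron of the gene itself (5.30%), which also lay farther from their TSS.

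**Figure D3:**
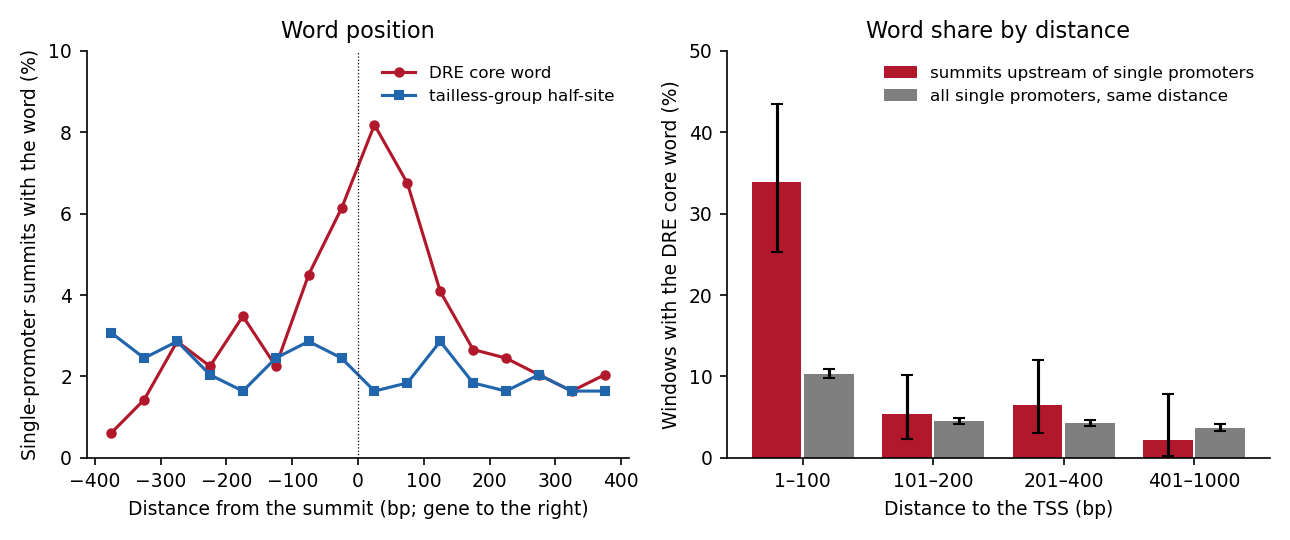
Left, share of the 489 single-promoter summits (%) with TATCGA (red, called the DRE core word) and AAGTCA (blue, labelled the tailless-group half-site) in bins of 50 bp around the summit, with the gene to the right; TATCGA peaks at 8.18% in the bin 0 to 50 bp on the gene side. Right, share of windows (%) with TATCGA by distance of the summit to the TSS for these summits (red) and for windows at the middle of the bin upstream of all single promoters (grey), with 95% exact intervals; 33.9% and 10.3% in the nearest bin.

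By signal value, the share of windows with the word was lowest in the strongest band and highest in the weakest. It was 6.50% (interval 2.85 to 12.4) in the strongest band, then 8.20% (4.00 to 14.6), 12.3% (7.05 to 19.5) and, in the weakest, 19.7% (13.0 to 27.8). None of the 24 strongest single-promoter regions held it, and CG11857 was the first that did. With the regions ranked by their signal value in replicate 3 alone, the shares were 4.46%, 12.6%, 13.5% and 17.1%. Ranked in replicate 4 they were 5.88%, 13.4%, 14.4% and 13.6%, so the strongest band was lowest in each ranking while the order of the other 3 differed. Among the 262 summits within 200 bp of the TSS the shares were 6.06%, 15.2%, 18.5% and 30.8%, strongest first. Divergent summits gave 9.70%, 16.4%, 17.2% and 20.1%. Summits in the other classes did not follow this order, with 3, 1 and 2 of 40 and 4 of 39 windows downstream and 6.11%, 3.05%, 2.29% and 4.58% of windows away from promoters, strongest first. The median signal value was 93.4 for the 57 regions with the word and 110 for the 432 without. These shares were examined after the data were seen and were not tested.

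**Figure D4:**
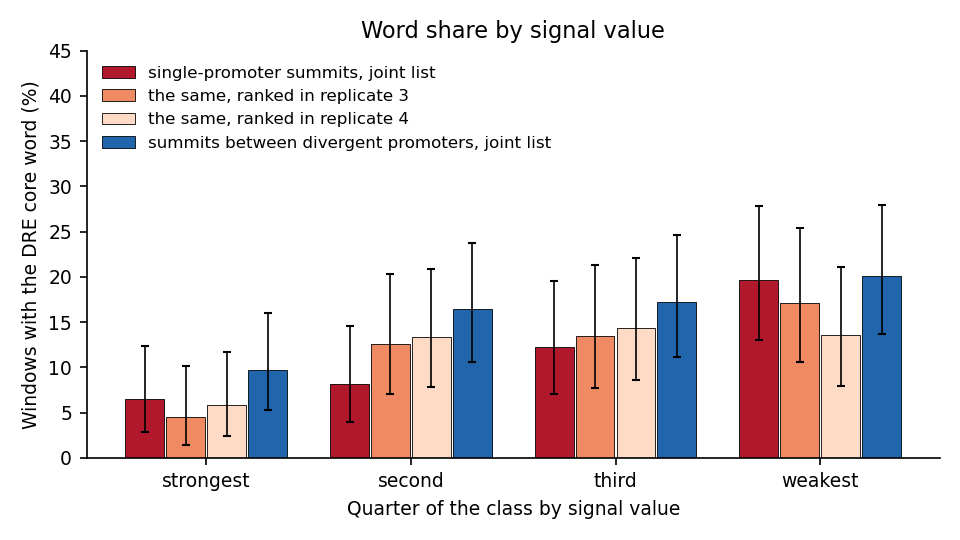
Share of windows (%) that hold TATCGA (the DRE core word) in 4 bands of equal size by signal value, strongest to weakest, with 95% exact intervals. Bars show the single-promoter summits ranked in the joint list (red), in replicate 3 (orange) and in replicate 4 (pale), and divergent summits ranked in the joint list (blue); the joint ranking runs 6.50%, 8.20%, 12.3% and 19.7% for single promoters.

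The word was rarer far below the joint list's limit. In the pooled list of 29999 regions, from which the joint list holds the strongest 1731, single-promoter summits ranked 1732 to 5000 held TATCGA in 12.8% (interval 10.6 to 15.2) of windows. At ranks 5001 to 10000 the share was 7.43%, at 10001 to 20000 it was 6.16% and at 20001 to 29999 it was 4.67%. The distance to the TSS moved with rank, with a median of 189 bp in the joint list and 213, 277, 377 and 414 bp in the successive bins, and its part in these shares was not tested. The share of nuclear summits upstream of single promoters was 28.6% in the joint list and 25.8%, 20.2%, 14.1% and 11.8% in these successive bins.

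The receptor word of the tailless group did not differ past the threshold. AAGTCA was found in 20 of 489 windows (4.09%, interval 2.52 to 6.25) and in 21 flank pairs (4.29%). The odds ratio was 0.952 (0.490 to 1.85), with an exact McNemar p of 1.00, and the interval still holds odds ratios on either side of 1. Windows placed 189 bp upstream of 11639 single promoters of the genome held it in 5.24%. The share was 5.60% at divergent summits, 5.66% downstream and 5.92% away from promoters. Among the 25 strongest single-promoter regions 3 held the word, larp, Sox14 and Tina-1. In the 4 bands by joint signal value the shares were 5.69% (interval 2.32 to 11.4), 4.10%, 4.92% and 1.64% (0.199 to 5.80), strongest first. The intervals of the strongest and weakest bands overlap, and these shares were not tested. AGGTCA, the word of many nuclear receptors, was found in 8 windows and 13 flank pairs, with an adjusted p of 0.718 by the exact McNemar test.

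Among the other named words, TATAAA, the TATA box, and TATTTT, part of the core promoter word called Motif 6, were more frequent in the window. TATAAA was found in 110 windows and 55 flank pairs, an odds ratio of 2.31 (exact test, adjusted p = 3.65e-04), and TATTTT in 187 windows and 101 flank pairs, an odds ratio of 2.25 (exact test, adjusted p = 3.11e-06). Both consist of A and T alone, and TATTTT is the reverse complement of AAAATA. They were also frequent at the other summits, including those away from promoters. TATAAA stood in 22.5% of single-promoter, 26.5% of divergent and 18.2% of downstream windows, and in 21.4% of windows away from promoters. In the same order TATTTT stood in 38.2%, 41.4%, 39.6% and 36.5%. The rest did not pass. CGATAA, a BEAF-32 word, was found in 30 windows and 22 flank pairs, and GTCACA, part of the element of the factor M1BP, in 16 and 11. GAGAGA, the element of the GAGA factor, was found in 25 windows and 38 flank pairs, the E-box CAGCTG in 22 and 27, and the Myc E-box CACGTG in 8 and 5. The initiator word TCAGTT was found in 27 windows and 35 flank pairs, the polypyrimidine initiator CTCTTT in 38 and 42, and the Zelda word CAGGTA in 7 and 9.

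A scan of all words gave mainly A and T. Read on the strand of the gene, 55 hexamers (1.34% of all) were more frequent in the window than in the flanks and 31 (0.757%) less frequent, at an adjusted p under 0.05 by the exact McNemar test. Of the 64 hexamers made of A and T alone, 32 were among the 55, and none was among the 31. TTTAAA led, in 115 windows and 47 flank pairs (odds ratio 2.74, exact adjusted p = 6.68e-05). TATCGA came next, read on the gene's strand in 37 windows and 4 flank pairs (exact adjusted p = 7.39e-05). After it came AAAATA (110 windows and 51 flank pairs), TTAAAA (108 and 49), TATTAT (59 and 17), AATAAT (76 and 28), TAAAAT (92 and 39), ATATTA (64 and 21), ATATAT (78 and 31) and AAATAT (103 and 49). Words with fewer A and T among the 55 included ACACTG, in 26 windows and 5 flank pairs, and CTATCG, which overlaps TATCGA, in 26 and 6. Of the 31 less frequent words, 30 held at least 3 bases that were G or C. GTGTGT was found in 10 windows and 45 flank pairs, GCGGCG in 0 and 18, and AGATGC in 0 and 17. Next by p-value came AGCAGC (5 windows and 28 flank pairs), CGGAGA (1 and 19), CGTGTG (3 and 24), CGCCGC (2 and 21), GGAGAG (2 and 19), GTGCGC (5 and 26) and GATCGG (0 and 14). Counted on either strand, 95 words (4.57% of all) were more frequent in the window and 101 (4.86%) less frequent, and AAATAT led with 174 windows and 84 flank pairs (exact adjusted p = 3.97e-07). The number of oriented words called depended on the regions: 31 with regions taken from replicate 4 alone, 68 from replicate 3 alone and 0 in the strongest 25% of the list.

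Composition moved with these words. A and T made up 66.4% of the bases in the window, 60.7% in the upstream flank and 54.4% in the downstream flank, and their part in the word counts was not tested. The window held 32.7% A and 33.7% T on the gene's strand, nearly even. Along the DNA the share of A and T peaked at 67.8% between 40 and 20 bp on the far side of the summit, and lay at 58.3% at 500 to 480 bp on that side. Aligned on the start site it was highest, 66.5%, at 180 to 160 bp upstream and lowest, 50.1%, in the last 20 bp ahead of the TSS. Windows at the 489 summits had a median of 67.3% A and T, against 62.4% in windows 189 bp upstream of all 11639 single promoters. The other summits were about as rich, with medians of 68.3% between divergent promoters, 64.4% downstream and 68.3% away from promoters. Windows with TATCGA were less rich in A and T, at a median of 61.4%, than windows without it, at 68.3%. The window ahead of fkh held 39.6%, the lowest share among the 489.

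**Figure D5:**
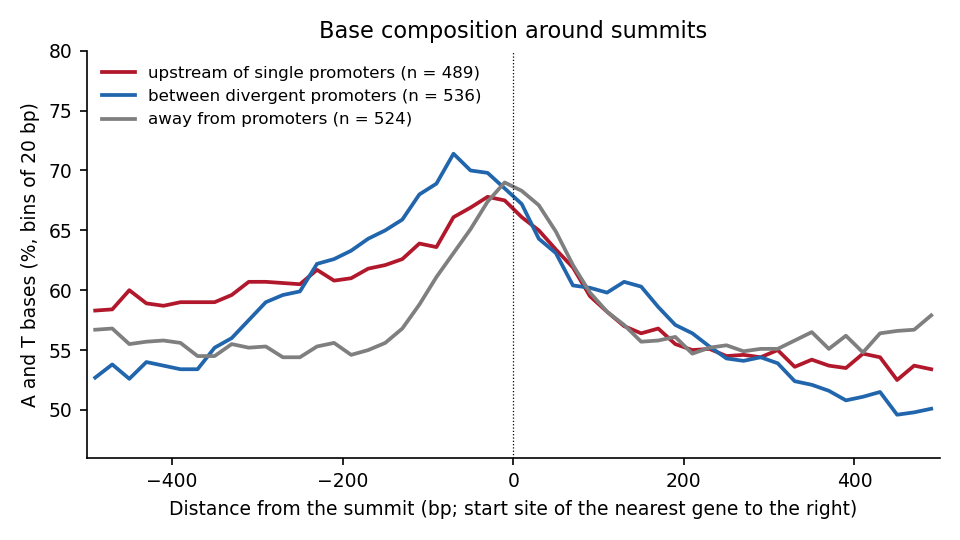
Share of A and T bases (%, bins of 20 bp) against the distance from the summit (bp), with the start site of the nearest gene to the right, for summits upstream of single promoters (red, n = 489), between divergent promoters (blue, n = 536) and away from promoters (grey, n = 524). The red line peaks at 67.8% just ahead of the summit and stays higher on its upstream side (58.3% at the far left) than on the gene side. The blue line peaks at 71.4% and the grey line at 69.0%.

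No word differed between the strands past the threshold. Of all pairs of a word and its reverse complement, 0 (0%) passed a two-sided exact binomial test after adjustment, with a lowest adjusted p of 1.00, and 60 had an unadjusted p under 0.05. The most uneven pair was CGCCAG, read on the gene's strand alone at 14 summits and on the other strand alone at 1. ATATCT, a more frequent word, was read on the gene's strand alone at 31 summits and on the other alone at 11. TATCGA stood on the gene's strand at 37 summits and on the opposite strand at 39, with both orientations in some windows.

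Between single-promoter and divergent summits no word differed past the threshold. Of all collapsed words, 0 (0%) passed a two-sided Fisher exact test after adjustment, with a lowest adjusted p of 0.233, and 115 had an unadjusted p under 0.05. GAGAGA stood in 25 single-promoter windows (5.11%, interval 3.34 to 7.45) and in 7 divergent windows (1.31%, 0.527 to 2.67), with an adjusted p of 0.233 by the Fisher exact test and an odds ratio of 4.07. AGAGAG gave 7.16% and 2.24%, and CTTCTA 5.52% and 1.49%. CTGCTA went the other way, with 1.02% of single-promoter windows and 4.85% of divergent windows, as did TAACAA with 9.41% and 16.6%. TATCGA stood in 11.7% of single-promoter windows and in 15.9% of divergent windows (12.9 to 19.2), an odds ratio of 0.700 with an adjusted p of 0.903. Against the 159 downstream summits the Fisher exact test again called 0 words (0%), with a lowest adjusted p of 0.613 and 95 words at an unadjusted p under 0.05. TATCGA stood there in 6.29% of windows (3.06 to 11.3), and the leading words were rarer in single-promoter windows, CGGAGA with 0.818% and 5.66% downstream, and ACACAA with 6.54% and 15.7% downstream.

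Against summits away from promoters, a comparison added after the data were seen, 5 words (0.240% of all) passed the Fisher exact test, and 132 had an unadjusted p under 0.05. CGATAG stood in 8.18% of single-promoter windows and 0.954% of windows away from promoters (odds ratio 9.25, Fisher exact adjusted p = 1.37e-05). ATCGAT stood in 49 of 489 and 13 of 524 windows (Fisher exact adjusted p = 5.88e-04), and TATCGA in 11.7% and 4.01% (odds ratio 3.16, Fisher exact adjusted p = 0.00357). GCGATA stood in 5.52% and 1.15% (Fisher exact adjusted p = 0.0486). AGATGC was rarer in single-promoter windows, with 0.613%, than away from promoters, with 4.39% (Fisher exact adjusted p = 0.0470). The 4 words that were more frequent share the letters CGAT and are not independent counts. With regions taken from replicate 3 alone the count was 2, and in the strongest 25% of the list it was 0. The shares at divergent summits for the same words were 12.9% for CGATAG, 15.1% for ATCGAT and 7.28% for GCGATA.

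The 489 summits belonged to 455 genes, 3.26% of the 13945 protein-coding genes. Of these, 424 had 1 summit, 28 had 2 and 3 had 3. The genes with 3 were Ptpmeg2, which encodes a tyrosine phosphatase, brwl, and spi, which encodes a ligand of the epidermal growth factor receptor. At Ptpmeg2 each summit had its own internal TSS, 154, 194 and 243 bp downstream of it, and signal values of 129.3, 227.9 and 114.9. In 15 genes the summits lay at several TSS, among them gro, which encodes a corepressor, the insulin receptor gene InR, dnc and Msp300. At 18 TSS a pair of summits shared the same start site, and 17 of the 18 pairs were 199 to 212 bp apart and the other pair 661 bp. RhoGAP93B is an example, with summits 54 and 254 bp upstream and signal values of 243.0 and 100.8, the nearer holding TATCGA. Other genes with 2 summits included CG43389, HmgZ, l(2)k01209, Rtnl1 and Rme-8. The nearest TSS was shared by several genes for 15 of the 489 summits. The dsf gene itself held no such summit, and the nearest one, at CG9044, lay 10054 bp from the gene.

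Of 86 genes of cytoplasmic ribosomal proteins, 9 (10.5%) had a single-promoter summit, against 3.26% of all protein-coding genes. A divergent summit was counted for 25 of the 86. For divergent summits, here and below, no share over all genes was computed, so these counts cannot be called high or low. Their summits lay close to the start site, at a median of 38 bp. TATCGA stood in 4 of the 9, and in 38 of the 112 single-promoter summits within 100 bp of the TSS (33.9%). RpS14b had a signal value of 116.3 at 28 bp, RpS29 101.6 at 4 bp, RpS2 100.5 at 6 bp and RpS10b 92.9 at 40 bp, all with the word. The rest lacked it, among them RpL11 with 109.8 at 38 bp and RpL23A with 108.0 at 120 bp. In replicates 3 and 4 the value of RpS14b was 33.5 and 87.2, and that of RpS2 was 35.9 and 65.1. Mitochondrial ribosomal proteins had 0 of 76, a count that allows at most 3.95%, and 7 of them had a divergent summit. Translation factors had 3 of 54 (eIF6, eEF2 and eEF1alpha1), chaperonin and heat shock genes 3 of 32 (Hsp27, Hsp26 and Hsp110), and cell cycle and replication genes 4 of 38 (fzr, CycT, CycE and E2f1). At eEF2, the translation elongation factor gene, the value was 53.8 in replicate 3 and 17.6 in replicate 4. Each is the value of the replicate's nearest summit within 100 bp, and whether both belong to the same peak was not tested. The list of general transcription and core promoter factors, 2 symbols of which matched no annotated gene, had 2 of 45. They were Taf4, a subunit of the general factor TFIID, with a signal value of 173.4, and the boundary protein gene BEAF-32, with summits 37 and 71 bp upstream of separate TSS. The proteasome had 1 of 46 (Rpn12) and oxidative phosphorylation 2 of 81 (UQCR-14 and ND-13B). There were 0 among 32 genes of tRNA synthetases and 32 of splicing (at most 9.38% each) and 0 among 29 of the vacuolar ATPase and 29 of Mediator (at most 10.3% each).

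Among regulatory and stage-specific genes, ecdysone response genes had 5 of 27 (18.5%), against 3.26% of all protein-coding genes. The list was chosen with earlier results known, and 3 of its symbols matched no annotated gene. Ldh, which encodes lactate dehydrogenase, had a signal value of 211.6 at 183 bp, with 70.0 in replicate 3 and 134.6 in replicate 4. The cell death gene hid had 112.0 at 311 bp, E23, an ABC transporter gene, 103.0 at 226 bp, the zinc finger gene crol 73.7 at 113 bp and the bZIP gene vri 73.6 at 585 bp. The values of crol and vri lay close to 73.5, the lowest among the single-promoter regions. E23 and crol held TATCGA and the other 3 did not. Nuclear receptors had 1 of 21, Hnf4, a regulator of lipid metabolism, with summits 122 and 221 bp upstream of separate internal TSS and signal values of 106.0 and 99.5. Neuroblast and neuronal genes had 3 of 33, namely elav, a pan-neuronal RNA-binding protein gene, with 171.9 at 283 bp, brat with 91.0 and Syx1A with 77.3. Imaginal disc patterning genes had 1 of 28, dac, at 555 bp. None of 121 cuticle protein genes and none of 180 chemoreceptor genes had one, which allows up to 2.48% and 1.67%. Gene lists are described by these counts with no test.

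The chromosome arms carried the summits in broad proportion to their start sites. There were 22.0 summits per 1000 protein-coding TSS on X (72 summits), 29.2 on 2L (106), 23.6 on 2R (93), 26.9 on 3L (100), 25.3 on 3R (115) and 21.1 on 4, where only 3 lay. TATCGA stood in 3 of the 93 windows on 2R (3.23%) and in 10.4% to 15.3% of windows on the other large arms, a difference noticed afterwards and not tested.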

How the data were processed

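ChIP-seq regions of 2 replicates of larvae with the dsf-eGFP fusion were analysed on dm6. Per the deposited file descriptions, each replicate's list derives from its own alignment and 1 further file, the pooled list from both alignments, and the joint list from these lists by the irreproducible discovery rate procedure. Which aligner and peak caller were run was not given in the sources used here. Deposited columns used were a signal value per region, which ranked regions within a list, and the −log10 of a q-value, which the authors computed and which was read but not used for any result. Depth is unknown.

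Genes came from Ensembl release 115, and region ends and 99.8% of 30593 start codons fitted the RefSeq release 6 genome. Ties for the nearest TSS went to the alphabetically first gene. Words were compared by two-sided exact McNemar tests (window within 50 bp against flanks of equal size), two-sided Fisher exact tests (classes) and exact binomial tests (strand), with Benjamini-Hochberg adjustment over all words of a test. Intervals are Clopper-Pearson at 95%, or the exact conditional interval for odds ratios. A list with 0 genes allows 3 divided by its size. Python 3.11.15, numpy 2.4.6, scipy 1.17.1, pandas 2.3.3 and matplotlib 3.10.9 were used.

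The regions, words, gene lists and tests were chosen with earlier results of these data known. Named genes are those of the 25 strongest regions, genes with several summits (at most 10), those at the limits of the rule, up to 4 per list by signal value, and dsf; others were named after their values were seen. The 10 lowest p-values per direction chose the words in the scans, in part. In each gene list 0 to 3 symbols matched no annotated gene and were left out. Lists on dm3 were not used, and no sequence from 2R is printed.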

Additional observations from a re-analysis of the deposited data

How the results depend on the processing

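No paired analysis was possible because there was 1 group of samples, with no second group to pair. With regions taken from 1 replicate alone, there were 473 to 495 single-promoter summits, of which 378 (79.9%, replicate 4) and 362 (73.1%, replicate 3) lay within 100 bp of one in the joint list. Oriented words called numbered 31 to 68, words against divergent summits 0 to 1 and words against summits away from promoters 2 to 5. The share found in both replicates cannot be given without a replicate.

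In the strongest 25% of the list there were 120 summits and 120 genes, oriented words called fell to 0, words against summits away from promoters to 0, and TATCGA had an odds ratio of 3.50 (exact McNemar p = 0.180). Fewer regions were tested there. Found in both replicates were 65.4% within 50 bp, 94.7% within 200 bp and 58.9% among the strongest regions only. Oriented words called numbered 3 with a window of 25 bp and 143 with flanks at 500 bp. Words against summits away from promoters numbered 3 with divergent TSS defined within 1000 bp of each other, 3 with TSS of all annotated genes and 2 with the 25 bp window. The cause was not tested. Under other settings of the rule there were 425 to 505 summits of 401 to 471 genes, at medians of 191 and 196 bp where the distance limit was kept. In the 6 alternatives with all strengths TATCGA had odds ratios of 3.00 to 8.67 and passed the exact McNemar test. AAGTCA had odds ratios of 0.714 to 1.60 and passed in none of the alternatives run. Words called for strand or against downstream summits numbered 0 in every alternative run. The main limits are 2 replicates, a control experiment that was not analysed, and unknown read depth.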
